A study of Mus musculus with 2 samples.

Results

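The genes described here are 10 parts of cholinergic signalling in the adult mouse cortex: the 5 muscarinic acetylcholine receptors (Chrm1, Chrm2, Chrm3, Chrm4 and Chrm5), the nicotinic receptor subunits Chrna4, Chrna7 and Chrnb2, the acetylcholine-degrading enzyme Ache, and the nicotinic receptor modulator Lynx1. They were taken by gene symbol, and all 10 were present among the 43346 gene rows of both libraries' tables on the mm10 assembly (GRCm38). The tissue was cerebral cortex, labelled cortical plate, from C57BL/6J mice aged 8 weeks. Male and female littermates were pooled, and the labels name no genetic change or treatment. RNA longer than 200 nt with poly(A) tails was sequenced from both ends as strand-specific reads, with external spike-in RNAs added. The labels call the 2 libraries biological replicates 1 and 2 of the same tissue but give them 1 donor identifier, so the spread between them may be partly technical. No second condition exists, and the only contrast is that of replicate 2 with replicate 1.

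Acetylcholine reaches the cortex mainly through axons of the basal forebrain, and a smaller part is made by local neurons. Muscarinic receptors are G protein-coupled: M1, M3 and M5 act through Gq, phospholipase C and closure of the M-current potassium channels, and M2 and M4 act through Gi/o, adenylyl cyclase inhibition and GIRK potassium channels. Nicotinic receptors are pentameric cation channels, of which the brain's main forms are assembled from alpha4 and beta2 subunits or from alpha7 alone. Acetylcholinesterase ends the signal by hydrolysing acetylcholine, and Lynx1, a small GPI-anchored Ly6 protein, binds nicotinic receptors and dampens them.

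Gene rows held 88327121 expected counts in replicate 1 and 88643335 in replicate 2. Markers of cortical neurons were abundant: the 6 excitatory markers summed to 3037 and 2610 TPM (transcript abundance scaled by length and to a fixed total) in replicates 1 and 2, and the 7 pan-neuronal markers to 3580 and 3219 TPM. The libraries stood apart in regional markers. The 13 striatal markers summed to 206 and 545 TPM, and all 13 were higher in replicate 2, while the 6 hippocampal markers summed to 22.3 and 7.39 TPM, and all 6 were lower. Summed levels were 966 and 931 TPM for 7 inhibitory, 3274 and 4009 TPM for 5 oligodendrocyte, 1469 and 1361 TPM for 5 astrocyte, 25.5 and 22.8 TPM for 8 thalamic and habenular, 19.2 and 12.6 TPM for 5 skeletal muscle and 513 and 643 TPM for 6 red blood cell markers. Acta1 alone held 18.4 and 12.3 TPM of the skeletal muscle sums. TPM read lower in replicate 2 for a typical gene (median log2 ratio -0.16), so the summed levels of the lists do not give directions on counts. On TMM-scaled counts, median log2 ratios (replicate 2 to 1) were 0.11 for inhibitory, 0.05 for astrocyte and 0.07 for thalamic and habenular markers. They were 0.43 for oligodendrocyte, 0.51 for red blood cell, -0.44 for skeletal muscle, -0.06 for excitatory and -0.008 for pan-neuronal markers. In bulk tissue, fewer cells of a type and less RNA per cell cannot be told apart.

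Levels of the 10 genes ranged from 0.0800 to 147 TPM. Lynx1 was the highest at 147 ± 8.08 TPM (mean ± SD, n = 2), above 97.1% of the 21474 protein-coding gene rows. Chrm1 followed at 59.0 ± 6.97 TPM and Ache at 31.3 ± 3.88 TPM, then Chrm3 at 20.7 ± 5.25, Chrm4 at 20.1 ± 3.01, Chrnb2 at 13.9 ± 1.11, Chrna4 at 8.39 ± 0.601, Chrna7 at 4.62 ± 0.580, Chrm2 at 2.47 ± 0.191 and Chrm5 at 0.0800 ± 0.0283 TPM. Neighbours in this order were called apart where the log2 ratio of their TPM had 1 sign in both libraries and a mean larger than its SD. By that rule 8 of 9 neighbouring pairs were apart. The exception was Chrm3 and Chrm4, whose order turned between the libraries: the log2 ratio of Chrm3 to Chrm4 was 0.44 in replicate 1 and -0.38 in replicate 2.

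**Figure D1:**
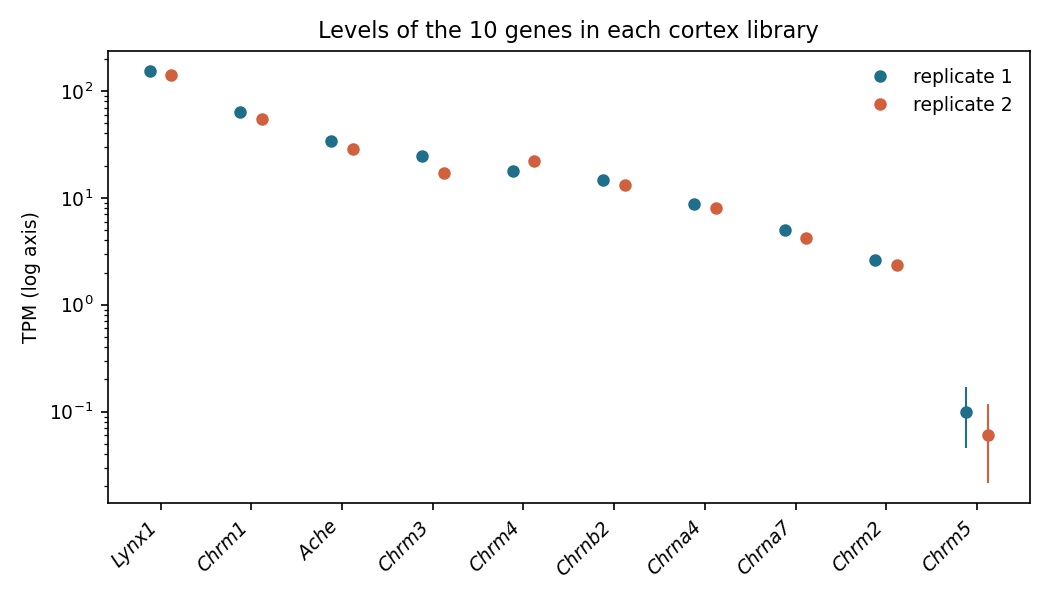
TPM of each gene (log axis) in replicate 1 and replicate 2, ordered by mean; points are the libraries and thin lines the authors' credible bounds, whose level is not stated. Lynx1 stands highest at 152 and 141 TPM and Chrm5 lowest at 0.100 and 0.0600 TPM, and only Chrm3 and Chrm4 change places between the libraries.

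Most of the 10 genes differed little between the libraries. Among the 9 with more than 15 counts over both libraries, the larger differences were a lower Chrm3 and a higher Chrm4 in replicate 2; the ratio of Chrm5 lay farther from 1 but rests on 15 counts and did not pass the test. Of the 10 genes, 5 passed the exact binomial test on counts, against 28.7% of the 19829 genes tested. Chrm4 and Lynx1 were higher in replicate 2 (14.8% of all genes tested were) and Chrm1, Chrm3 and Ache were lower (13.9%). The median log2 ratio of the 10 genes was -0.03, beside 0.00305 for all genes tested. This test counts sampling error alone, so at this depth it passes small differences between 2 libraries and says nothing of conditions. At a difference of at least 1.5-fold, 0 of the 10 genes passed, against 4.38% of all genes. With edgeR's exact test and a dispersion estimated from the same 2 libraries, 0 of the 10 passed after adjustment, against 1.31% of all genes, and 1 of the 10, Chrm4, had an unadjusted p below 0.05 (0.0166), as did 6.31% of all genes. Of all genes called, 51.5% were higher in replicate 2 with TMM scaling, 33.2% with plain totals and 8.30% with spike-in totals. With spike-in totals 9 of the 10 passed, 1 higher and 8 lower, against 53.2% of all genes tested (4.42% higher and 48.8% lower). Spike-in totals moved the median of all genes to -0.15 on the log2 scale, and the ratio of TPM moved it to -0.16, so a typical TPM value read lower in replicate 2.

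**Figure D2:**
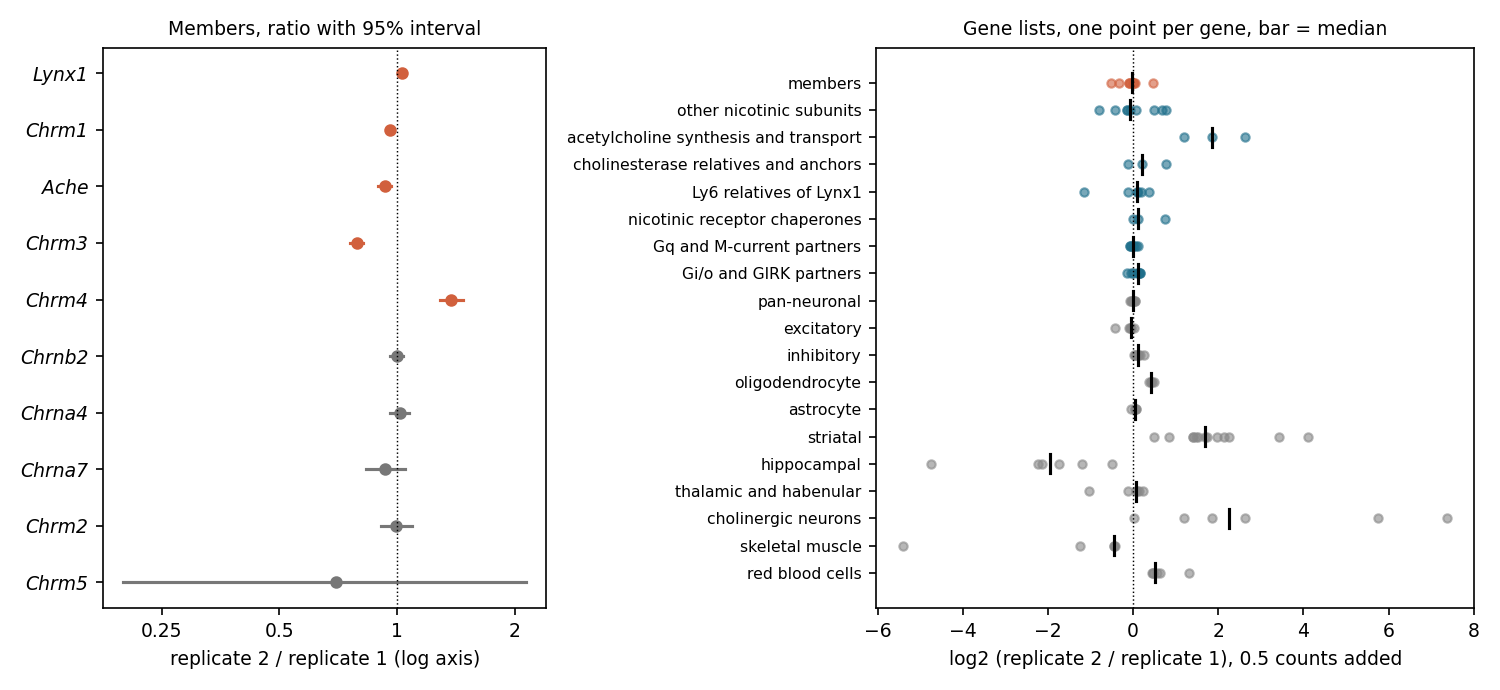
Left, ratio of replicate 2 to replicate 1 (log axis) for the 10 genes with 95% exact intervals that cover counting error only; red marks genes past the test. Right, log2 ratios of the tested genes of each list, 1 point per gene with a bar at the median; genes with 0 counts in 1 library are drawn at a value that depends on the 0.5 counts added. Chrm4 (1.38) and Chrm3 (0.789) lie farthest from 1 among the well-counted genes, and the striatal and hippocampal markers spread to opposite sides.

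Transcript tables and junction reads bear on which forms of the 10 genes were made. One modelled transcript held at least 90% of the gene's TPM in both libraries for 7 of the 10 genes: Chrm2, Chrm4, Chrm5, Chrna4, Chrna7, Chrnb2 and Lynx1. Of these, Chrm4, Chrm5, Chrna7 and Chrnb2 have 1 modelled transcript each, so their share of 100% is fixed by the model. Chrm1, Chrm3 and Ache were divided among several. Junction reads come from the deposited mm9 table, whose pair of columns is not tied to the replicates. Introns of the leading transcripts were matched to them within a gene by intron length.

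Among the muscarinic receptors, Chrm1 was the main transcript. Chrm1 (M1; ENSMUSG00000032773, chromosome 19, 8663789 to 8683587, plus strand) stood at 63.9 TPM in replicate 1 and 54.1 in replicate 2, from 17879 and 16772 counts. It made up 58.6% and 56.5% of the summed muscarinic TPM. The M1 receptor is the main postsynaptic muscarinic receptor of cortical pyramidal cells. Chrm1 was 1.05-fold lower in replicate 2 (95% interval 1.02 to 1.07, adjusted p = 0.000314, exact binomial test with Benjamini-Hochberg adjustment).

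Chrm1 differed in a 92 nt exon of the 5′ untranslated region (GRCm38 chromosome 19, 8664909 to 8665000), upstream of the exon that holds its start codon. The junctions are shown with the optional exon's bases in capitals (GENCODE transcripts, plus strand):
Chrm1-201, exon skipped: ctctccggtcccatggtgatgcccttactc
Chrm1-202, into the exon: ctctccggtcccatgGAAACCCTGAATCCT
Chrm1-202, out of the exon: AAGCTGGATGCCAAGgtgatgcccttactc
There were 359 reads into the exon, 203 out of it and 386 that skipped it. With the 2 sides averaged, the exon was included in 42.1% of reads, 41.4% in 1 column and 43.0% in the other. The 2 sides disagreed in both columns, with 195 reads in and 109 out in 1 and 164 in and 94 out in the other. The averaged share thus depends on weighing both sides alike, and its agreement between columns does not show its accuracy. The transcript table put the models with the exon, Chrm1-202 and Chrm1-203, at 24.8% of the gene's TPM in replicate 1 and 23.6% in replicate 2, below the share by junction reads. In the models the exon goes with the 3′ end: Chrm1-202 has a last exon 2020 nt longer than that of Chrm1-201, and no model joins the skipped form to the longer end.

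Chrm3, the gene of the other abundant Gq-coupled receptor (M3; ENSMUSG00000046159, chromosome 13, 9875486 to 10360847, minus strand), stood at 24.4 and 17.0 TPM, from 5876 and 4544 counts. It was 1.27-fold lower in replicate 2 (95% interval 1.22 to 1.32, adjusted p = 1.33e-31, exact binomial test). The hippocampal markers were lower in the same library: their 3 most abundant genes were Fibcd1 (6.21 and 2.43 TPM), C1ql2 (6.49 and 1.31 TPM) and Prox1 (4.51 and 2.78 TPM). No hippocampal marker was at 0 in both libraries, and their part in the Chrm3 difference was not tested. The level of Chrm1 relative to Chrm3 was 2.62-fold in replicate 1 and 3.18-fold in replicate 2.

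Chrm3 has a 47 nt exon in its long 5′ untranslated region (GRCm38 chromosome 13, 10028453 to 10028499), directly before the coding exon. Its bases are in capitals (minus strand); the last line joins the flanking exons:
Chrm3-202, into the exon: caaaggtacaataagGGCTGACTACTTAAT
Chrm3-202, out of the exon: TGTGTTCTTCCTTGGactatgtcagagagt
Chrm3 exons joined: caaaggtacaataagactatgtcagagagt
The reads numbered 342 into the exon, 414 out of it and 108 that skipped it, so 77.8% included it (78.0% and 77.5% in the columns). The Ensembl 65 model of Chrm3 in the mm9 tables spans 1949 nt and holds none of these introns, and the junction table marks none of them as annotated, if its flag means that. In the mm10 transcript table, Chrm3-202, which includes the exon, held 77.2% and 79.1% of the gene's TPM, and the single-exon coding model Chrm3-201 held 22.8% and 20.9%. No mm10 coding model holds the skipped form, so these TPM shares are not a share of the exon.

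Chrm5 (M5; ENSMUSG00000074939, chromosome 2, 112479171 to 112480769, minus strand), the third Gq-coupled receptor, had 9 and 6 counts, or 0.100 and 0.0600 TPM. Its ratio between the libraries, 0.698, had an interval of 0.199 to 2.14, so no difference was detectable at this depth. M5 is known from dopamine neurons of the midbrain. Over both libraries Chrm1 was 759-fold above Chrm5 in TPM, a ratio that rests on 15 Chrm5 counts.

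Of the Gi/o-coupled receptors, Chrm4 far exceeded Chrm2. Chrm4 (M4; ENSMUSG00000040495, chromosome 2, 91927249 to 91928688, plus strand) stood at 18.0 and 22.2 TPM, from 1508 and 2033 counts. It was 1.38-fold higher in replicate 2 (95% interval 1.29 to 1.47, adjusted p = 1.92e-19, exact binomial test), the only member whose TPM was higher there. M4 is a muscarinic receptor found in striatal projection neurons, among other cells. The striatal markers were higher in the same library, from 1.40-fold for Pdyn to 17.3-fold for Drd2, named as the ends of the range after their values were seen. Their 3 most abundant genes were Ppp1r1b at 69.7 and 159 TPM, Penk at 26.4 and 110 TPM and Adcy5 at 28.6 and 45.9 TPM. None of the 13 was at 0 in either library, and their part in the Chrm4 difference was not tested.

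Chrm2 (M2; ENSMUSG00000045613, chromosome 6, 36388084 to 36528414, plus strand), known as the presynaptic autoreceptor of cholinergic axons, stood at 2.60 and 2.33 TPM, from 953 and 931 counts. Its ratio between the libraries was 0.996 (95% interval 0.909 to 1.09), and it did not pass the test. Chrm4 was 6.92-fold above Chrm2 in replicate 1 and 9.54-fold in replicate 2. Chrm1 was 24.6-fold and 23.2-fold above Chrm2. The summed TPM of the Gq-coupled receptors exceeded that of the Gi/o-coupled receptors 4.30-fold in replicate 1 and 2.90-fold in replicate 2, so Gq-coupled receptors held the larger part in both.

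These ratios depend on the gene models. In the deposited mm9 tables, whose values are RPKM (read counts scaled by gene length and depth) over the Ensembl 65 annotation, the log2 ratio of Chrm1 to Chrm4 was 0.89, against 1.56 by TPM, and that of Chrm1 to Chrm2 was 3.82, against 4.58. The direction held in both. The mm10 model of Chrm4 is 1440 nt long and starts at its start codon, so its TPM rests on the coding exon alone.

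The nicotinic subunits were expressed in a fixed order, Chrnb2 above Chrna4 above Chrna7, in both libraries. Chrnb2 (beta2; ENSMUSG00000027950, chromosome 3, 89746195 to 89764632, minus strand) stood at 14.7 and 13.1 TPM, from 5153 and 5043 counts. Chrna4 (alpha4; ENSMUSG00000027577, chromosome 2, 181018380 to 181043546, minus strand) stood at 8.81 and 7.96 TPM, from 2589 and 2576 counts. These partners of the high-affinity receptor kept a ratio of 1.67 in replicate 1 and 1.65 in replicate 2. Chrna7 (alpha7; ENSMUSG00000030525, chromosome 7, 63098692 to 63212569, minus strand) forms the homomeric, calcium-permeable receptor and stood at 5.03 and 4.21 TPM, from 644 and 589 counts. Chrna4 was 1.75-fold and 1.89-fold above Chrna7.

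None of these 3 subunits passed the test between the libraries with TMM scaling. The ratio of replicate 2 to replicate 1 was 0.998 for Chrnb2 (95% interval 0.960 to 1.04), 1.02 for Chrna4 (0.961 to 1.07) and 0.933 for Chrna7 (0.833 to 1.05). The direction of Chrna4 turned with the scaling, from a log2 ratio of 0.02 to -0.01 with plain totals and -0.13 with spike-in totals. With spike-in totals all 3 were called lower in replicate 2 (adjusted p = 2.16e-07 for Chrnb2, 0.00253 for Chrna4 and 0.0049 for Chrna7, exact binomial test).

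The other 13 nicotinic subunits were far lower. Chrna5, an accessory subunit of alpha4beta2 receptors in deep cortical layers, was the highest of them at 1.28 and 1.03 TPM. Chrnb1, a subunit of the muscle receptor, had 1.12 and 0.670 TPM, from 96 and 89 counts. Its modelled length was 1462 nt in replicate 1 and 2000 nt in replicate 2. Chrnb3 had 0.690 and 0.560 TPM. The lowest was Chrnd, the delta subunit of the muscle receptor, with 0 counts in both libraries. Of these 13 genes, 9 had enough counts for the test. Of the 9, 0 passed the exact binomial test in either direction, against 28.7% of all genes tested. Without adjustment, 0 had a p below 0.05 by this test and by edgeR's (6.31% of all genes did by edgeR's). Chrnb2, Chrna4 and Chrna7 together held 88.1% of the summed TPM of 16 nicotinic subunits in replicate 1 and 89.2% in replicate 2.

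**Figure D3:**
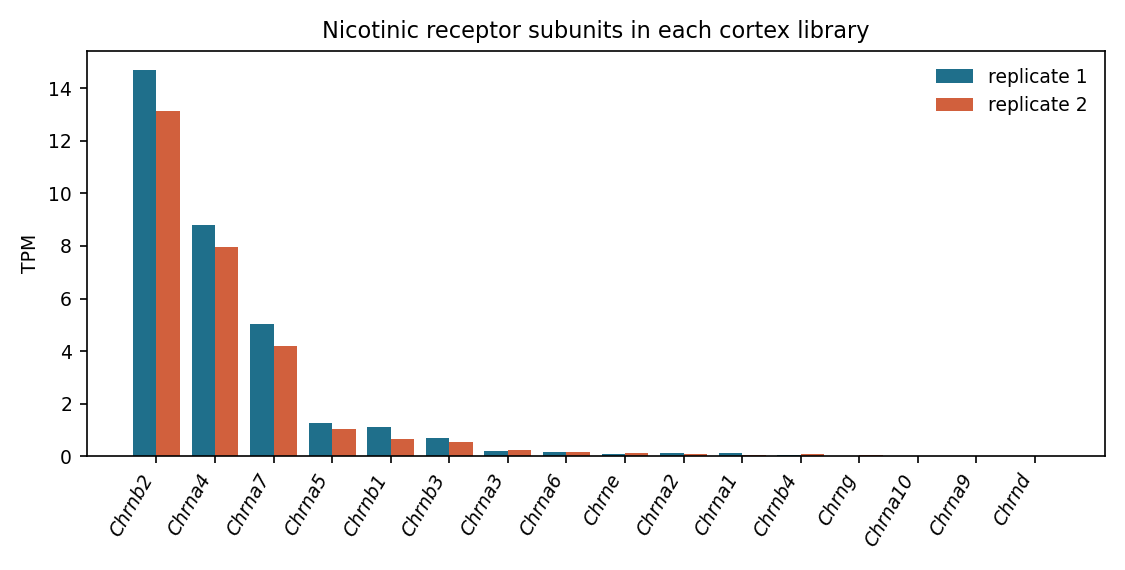
TPM of 16 nicotinic receptor subunits in replicate 1 and replicate 2, ordered by mean; bars are single libraries. Chrnb2, Chrna4 and Chrna7 stand above all others, of which Chrna5 reaches 1.28 TPM.

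Proteins that help nicotinic receptors fold and cluster were also measured. Ric3, a chaperone of alpha7, had 23.5 and 21.2 TPM and did not pass the test (adjusted p = 0.796, exact binomial test). Tmem35a, which encodes the chaperone NACHO, had 22.2 and 21.6 TPM and was 1.08-fold higher in replicate 2 (adjusted p = 0.0194, exact binomial test). Rapsn, which clusters receptors at the neuromuscular junction, had 0.330 and 0.930 TPM, from 30 and 50 counts. Its count ratio was 1.69 and did not pass (adjusted p = 0.0776, exact binomial test). The modelled length of Rapsn was 1539 nt in replicate 1 and 935 nt in replicate 2, which also moves its TPM. By the exact binomial test 1 of the 3 genes was higher and 0 were lower, against 14.8% and 13.9% of all genes tested.

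Ache (ENSMUSG00000023328, chromosome 5, 137287519 to 137294466, plus strand) stood at 34.1 TPM in replicate 1 and 28.6 TPM in replicate 2, from 5335 and 4865 counts. It was 1.08-fold lower in replicate 2 (95% interval 1.03 to 1.12, adjusted p = 0.00164, exact binomial test). Bche, the butyrylcholinesterase gene, had 0.930 and 0.960 TPM and did not pass, so Ache exceeded it 36.6-fold and 29.8-fold. Prima1, which encodes the membrane anchor of brain acetylcholinesterase, had 2.66 and 4.05 TPM. It was 1.70-fold higher in replicate 2 (adjusted p = 1.45e-05, exact binomial test), opposite in direction to Ache. Neither difference passed edgeR's exact test (adjusted p = 0.117 for Prima1, unadjusted p = 0.578 for Ache). The authors' credible bounds of Prima1 were wide, 2.29 to 44.55 TPM in replicate 1 and 3.66 to 41.4 in replicate 2. Colq, the collagen tail of the muscle enzyme, had 0.50 and 0.41 TPM. Of this list of 3, 1 was higher and 0 were lower by the exact binomial test, against 14.8% and 13.9% of all genes tested. The log2 ratio of Ache to Prima1 was 3.25 ± 0.61 (SD, n = 2) by TPM but 0.92 by the authors' posterior mean TPM, so its size is uncertain.

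Ache reads chose between acceptor sites 3 nt apart at the start of exon 2, upstream of the start codon. The coding model Ache-202 uses the upstream site and Ache-201 the downstream one. These models also differ elsewhere: Ache-202 is 2176 nt long and Ache-201 2186 nt, although Ache-202 keeps the 3 extra bases. Their TPM shares thus do not measure the acceptor alone. The sequences around this junction, from the GENCODE transcripts on GRCm38 (plus strand, between chr5:137288356-137290026), are shown because they differ by 3 bases, given in capitals:
Ache-202: tggccgcctcagCAGacaccagcctgtcct
Ache-201: tggccgcctcagacaccagcctgtcct
The upstream acceptor, which keeps the capitals, was used by 53 of 188 junction reads, or 28.2% (95% Clopper-Pearson interval 21.9 to 35.2), with 30 of 111 in 1 column (27.0%) and 23 of 77 in the other (29.9%). The transcript table gave Ache-201 58.2% and 49.0% of the gene's TPM in replicates 1 and 2, and Ache-202 18.6% and 29.9%. Of the TPM of both transcripts, Ache-202 thus held 24.3% in replicate 1 and 37.9% in replicate 2. Junction shares differed by less between the columns than the transcript estimates did between the replicates, but each column's own 95% Clopper-Pearson interval was wide. It ran from 19.04 to 36.28% for the column with 111 reads, which covers 24.3% but not 37.9%. For the column with 77 reads it ran from 19.97 to 41.38%, which covers both. The columns are also not tied to the replicates, so these reads cannot show whether the junction share was the steadier measure. Ache-208, a model that retains introns, held 22.7% and 21.1%.

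At the 3′ end, Ache can end in the tailed form, whose last exon codes for the peptide that binds the Prima1 and Colq anchors. Among junction reads that left exon 4, 610 of 611 joined the common last exon, or 99.8% (95% Clopper-Pearson interval 99.1 to 100). Reads that run unspliced into the last intron, as those of a readthrough form would, are not counted by junctions. The share thus covers spliced reads only and cannot weigh the tailed form against a readthrough form. The sequence of this end, from the last 30 bases of exon 4 to the stop codon in capitals (GRCm38, plus strand, between chr5:137293308-137294238), is shown because it encodes the tail:
Ache-201: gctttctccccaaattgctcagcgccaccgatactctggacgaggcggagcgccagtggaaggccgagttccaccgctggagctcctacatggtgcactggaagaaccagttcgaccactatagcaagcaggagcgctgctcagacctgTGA
The last exon has 350 nt, of which the first 122 run up to and with the stop codon.

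**Figure D4:**
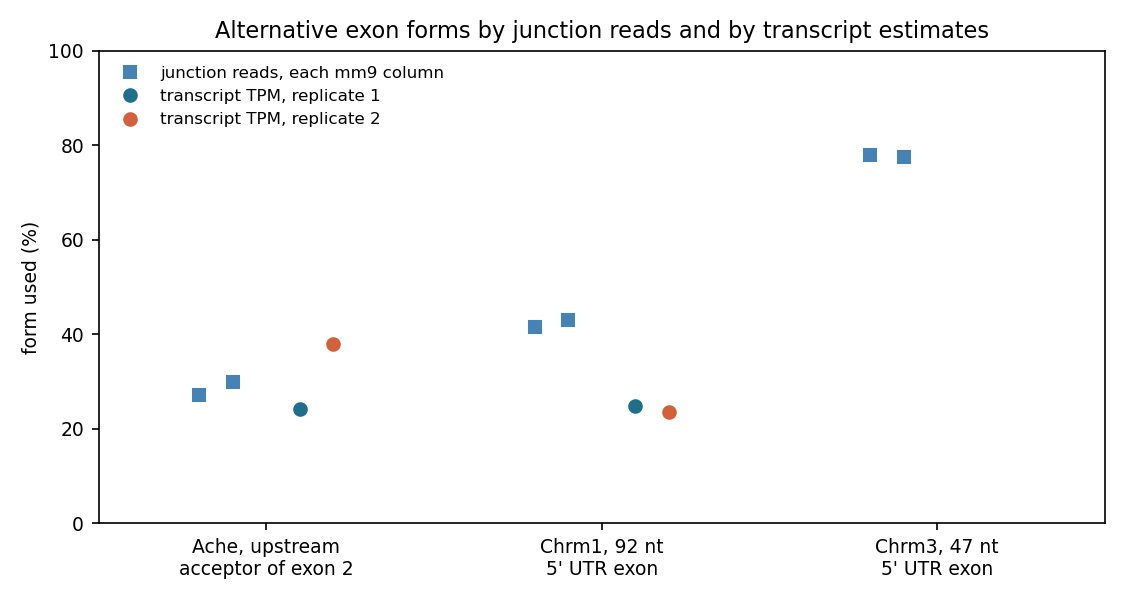
Share (%, from 0 to 100) of the upstream acceptor of Ache and of the optional 5′ UTR exons of Chrm1 and Chrm3, by junction reads in each mm9 column (squares), and by transcript TPM in each replicate for Ache (among Ache-201 and Ache-202) and Chrm1 only (circles). Circles of Ache lie at 24.3 and 37.9%, apart from each other, and circles of Chrm1 (24.8 and 23.6%) lie below its squares (41.4 and 43.0%). Ache-201 and Ache-202 also differ outside this junction, so the circles of Ache do not measure the acceptor alone.

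The genes that make and load acetylcholine had low levels and were higher in replicate 2. Chat, choline acetyltransferase, had 25 and 155 counts (0.140 and 0.800 TPM) and was 6.22-fold higher. Slc5a7, the high-affinity choline transporter, had 57 and 203 counts (0.170 and 0.550 TPM) and was 3.61-fold higher. Slc18a3, the vesicular acetylcholine transporter, had 27 and 61 counts (0.180 and 0.370 TPM) and was 2.28-fold higher. All 3 passed the exact binomial test, with adjusted p of 3.81e-23, 1.40e-19 and 0.00156, while 14.8% of all genes tested passed as higher. With edgeR's exact test Chat and Slc5a7 still passed (adjusted p = 9.87e-13 and 5.98e-09) and Slc18a3 did not (adjusted p = 0.102). The 6 cholinergic neuron markers, which include these 3 genes, summed to 0.520 and 2.76 TPM. Isl1, a transcription factor of striatal and other cholinergic neurons, had 0 counts in replicate 1 and 81 in replicate 2. The striatal markers given above moved with these genes, and their part was not tested. Ache exceeded Chat 243-fold in replicate 1 and 35.7-fold in replicate 2.

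Lynx1 (ENSMUSG00000022594, chromosome 15, 74747852 to 74753046, minus strand) stood at 152 TPM in replicate 1 and 141 TPM in replicate 2, from 38920 and 39249 counts. On counts with TMM scaling, Lynx1 was 1.03-fold higher in replicate 2 (95% interval 1.01 to 1.04, adjusted p = 0.000586, exact binomial test). The call was lost with plain totals (log2 0.00699, adjusted p = 0.671, exact binomial test), and the direction turned with spike-in totals (log2 -0.11) and with the ratio of TPM (log2 -0.11). Lynx1 was 17.3-fold and 17.7-fold above Chrna4 in the libraries, and 30.3-fold and 33.5-fold above Chrna7.

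Other Ly6 proteins differed widely in level. Ly6e was the highest at 294 and 276 TPM and was 1.06-fold higher in replicate 2 on counts (adjusted p = 3.54e-07, exact binomial test). Ly6h, a brain Ly6 protein that limits alpha7 surface expression, had 238 and 199 TPM and was 1.09-fold lower (adjusted p = 8.83e-10, exact binomial test). Lypd1, also called Lynx2, had 56.7 and 67.5 TPM and was 1.29-fold higher (adjusted p = 1.17e-42, exact binomial test). Lypd6 had 9.88 and 10.3 TPM and was 1.13-fold higher (adjusted p = 0.00123, exact binomial test). The lowest was Slurp1, a secreted keratinocyte protein, with 0 counts in both libraries. Its relative Slurp2, which lies next to Lynx1, had 2 and 1 counts and is named for its position. Of the 8 Ly6 genes, 6 were tested, 3 were higher and 1 was lower, against 14.8% and 13.9% of all genes tested.

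The signalling partners of the muscarinic receptors were abundant and differed by small factors, given here by the exact binomial test with TMM scaling. Of 7 Gq and M-current genes, 2 were higher and 3 lower in replicate 2, against 14.8% and 13.9% of all genes tested. Kcnq3, a potassium channel subunit of the M-current, had 20.1 and 19.4 TPM and was 1.08-fold higher. Gna11, a Gq-class alpha subunit, had 84.4 and 72.5 TPM and was 1.03-fold lower, and Gnaq had 34.8 and 29.3 TPM and was 1.06-fold lower. Plcb1, the phospholipase C downstream of them, had 50.7 and 47.7 TPM and was 1.04-fold higher. The lowest of the list was Kcnq5, with 14.1 and 12.9 TPM.

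Of 8 Gi/o and GIRK genes, 5 were higher and 2 lower, against 14.8% and 13.9% of all genes tested. Gnao1, the abundant Go alpha subunit, had 225 and 223 TPM and was 1.10-fold higher, and Rgs4, which speeds the shut-off of Gi/o and Gq, had 208 and 209 TPM and was 1.13-fold higher. Gnai2 had 157 and 142 TPM and did not pass. Gnai1 (57.0 and 54.0 TPM) was 1.06-fold, Gnai3 (13.6 and 13.4 TPM) 1.09-fold and Kcnj6 (7.47 and 7.39 TPM), the lowest of the list, 1.12-fold higher. The GIRK subunits Kcnj3 (31.9 and 25.7 TPM) and Kcnj9 (98.5 and 83.6 TPM) were 1.11-fold and 1.04-fold lower. Over all 7 lists, 15 of 39 tested pathway genes were higher and 6 lower, against 14.8% and 13.9% of all genes tested. Their median log2 ratio was 0.08. With spike-in totals 5 were higher and 14 lower, against 4.42% and 48.8% of all genes tested, and of the 15 only Chat, Slc18a3, Slc5a7, Prima1 and Lypd1 stayed higher. With edgeR's exact test 2 of the 39 passed, Chat and Slc5a7, against 1.31% of all genes tested.

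All 33 introns of the 8 spliced leading transcripts had junction reads. Lynx1 had 1499, 3039 and 4099 reads over its 3 introns, from the 5′ end. Chrnb2 had 175 reads over its first intron and 697 over its last, Chrna4 37 and 319, and Chrna7 22 and 115. Ache had 135, 371, 888 and 610 reads over its introns. In each of these genes, and in Chrm2 and Chrm3, the last intron had more reads than the first. Chrm2 had 33 and 40 reads over its introns. Chrm3 had 319, 387, 342 and 414 reads over 4 introns that together span 481 kb. No junction read was listed for Chrm5. Lynx1 and Slurp2 were not joined by any of the junctions listed, while the junctions assigned to Lynx1 held 8848 reads. Of these, 1 read crossed a junction that left the gene past its 3′ end (mm9 chromosome 15, 74559087 to 74581106).

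**Figure D5:**
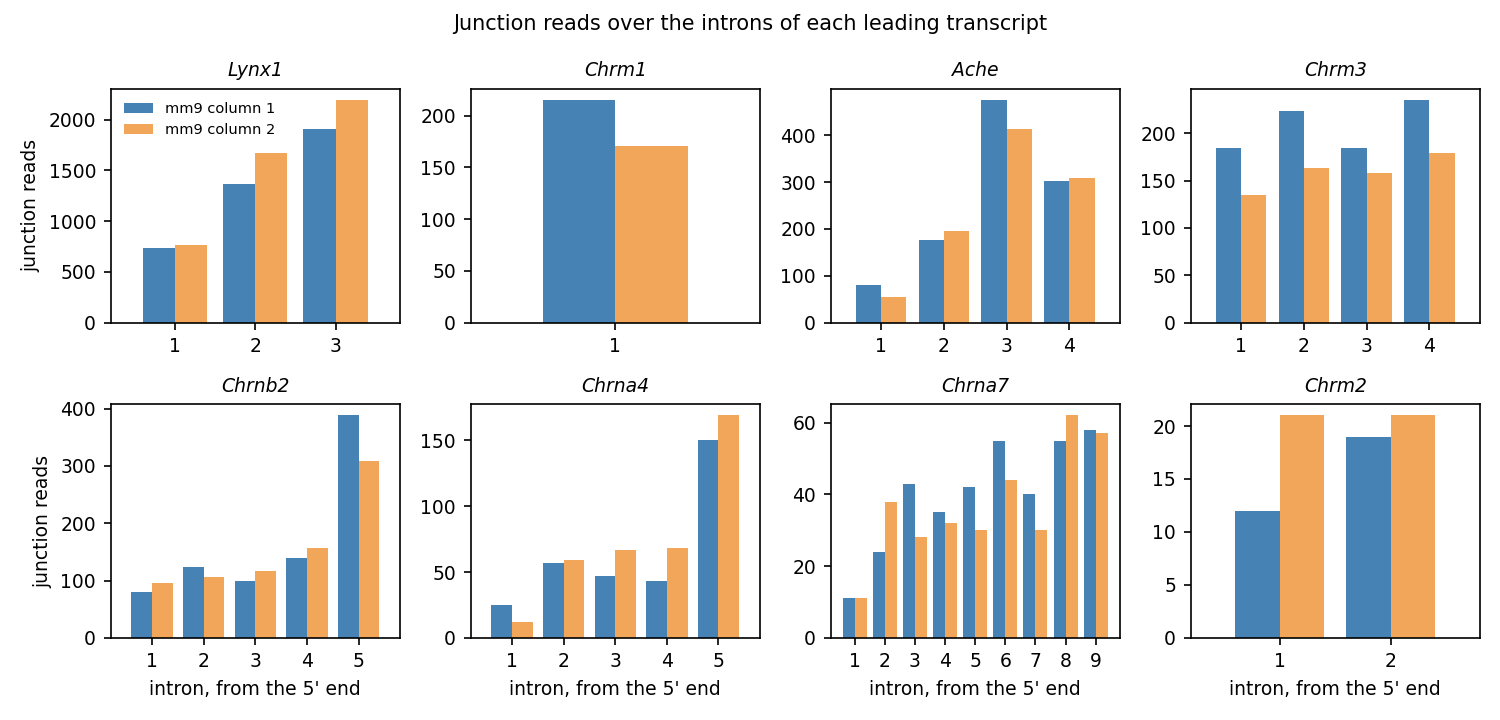
Junction reads (vertical axis, from 0, its own scale per gene) over each intron of the leading transcript of 8 genes, numbered from the 5′ end; paired bars are the columns of the mm9 junction table, which are not assigned to replicates. The reads over Chrnb2 go from 175 in the first intron to 697 in the last, summed over columns.

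Transcribed contigs of the mm9 assembly, which merge both libraries, ran past the annotated 3′ ends of several genes on the same strand. The contig over the end of Chrm3 reached 8329 nt beyond it, that of Chrna7 4827 nt, that of Chrm4 4787 nt and that of Chrm1 2012 nt. None of these 4 contigs overlapped another Ensembl 65 gene on that strand. The contig of Ache reached 2108 nt past the gene but overlapped its neighbour Ufsp1. Chrnb2, Lynx1 and Chrna4 ended within 4, 10 and 33 nt of their annotated ends. Positions were not moved between assemblies, so whether these contigs also pass the ends of the mm10 models was not tested.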

How the data were processed

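Per the file headers, the authors made the mm10 gene and transcript tables with release 4 of the GENCODE mouse annotation, giving expected counts, TPM, FPKM, posterior means and each transcript's percent of its gene. The deposited mm9 tables (Ensembl 65) give RPKM per gene, junction read counts and a contig signal level. The aligner and quantifier are not given in the sources used here. Names and positions come from GENCODE release 21 by Ensembl identifier (98.0% of gene rows matched). Rows that name no gene held 3.86% and 4.62% of counts and were left out.

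Expected counts were rounded. Replicate 2 was compared with replicate 1 by an exact two-sided binomial test with TMM library sizes (edgeR 4.0.16, R 4.3.3) where the libraries together held 10 or more counts of a gene. P-values were adjusted (Benjamini-Hochberg) over all such genes, and the threshold was 0.05. Log2 ratios add 0.5 counts. Intervals are 95% Clopper-Pearson (scipy 1.17.1) and cover counting error only. The binomial comparison alone was tried on simulated counts. Apart from genes set to differ, these varied by counting error only, unlike real libraries. Alternatives used DESeq2 1.42.0 size factors, other totals, filters and scales. All 10 genes are named, with the 3 highest, the lowest and each called gene of every pathway list. The 3 highest of the striatal, hippocampal and cholinergic neuron lists are also named. Other marker lists are given as sums, and Acta1 is named because it held most of its list's sum. A member of the Gq and M-current list is counted but not reported here. The members and lists were chosen with earlier results of these data known, and the exon events after the junctions were seen. Exon tables and assembled models were not used here.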

Additional observations from a re-analysis of the deposited data

How the results depend on the processing

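The 5 genes called of 10 became 9 with spike-in totals (which called 53.2% of all genes), 0 with edgeR's exact test and 0 at 1.5-fold or more. The 2 called higher became 1 with plain totals, 1 with spike-in totals, 0 with edgeR's test and 0 at 1.5-fold, and the 3 called lower became 8, 0 and 0 with the last 3 of these. The 21 pathway genes called became 2 with edgeR's test and 4 at 1.5-fold; higher calls went from 15 to 5 with spike-in totals, 2 with edgeR's test and 4 at 1.5-fold, and lower calls from 6 to 14, 0 and 0. DESeq2 size factors and minimums of 1 or 50 counts kept these counts within 1.5 times. Of all genes tested, 28.7% were called in the main test, 1.31% with edgeR's test and 4.38% at 1.5-fold. The log2 ratio of Chrna4 reversed from 0.02 to -0.012 (plain totals) and -0.13 (spike-ins), and that of Lynx1 from 0.04 to -0.11 (spike-ins and TPM ratio); totals shift all genes alike, and the TPM ratio has a median of -0.16 over all genes. Neighbours apart numbered 7 or 8 under every value type tried, but the order changed: mm9 RPKM put Chrm4 above Chrm3, and counts not divided by length put Chrm3 above Ache, Chrnb2 and Chrna4 above Chrm4, and Chrm2 above Chrna7. The first gene of all 14 pairs stayed higher; rescaling TPM over nuclear protein-coding genes multiplied levels by 1.87 and 2.06. The leading Ache transcript held 49.0% to 58.2% when either replicate was left out. No paired analysis was possible because the libraries form 1 group. Depth limits Chrm5, the other nicotinic subunits and the acetylcholine synthesis genes.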
